A study of Sus scrofa with 12 samples.

Results

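The genes examined here are the writers, erasers and readers of N6-methyladenosine (m6A), the most common internal base modification of messenger RNA. They are the 10 rows of the deposited count table named METTL3, METTL14, WTAP, FTO, ALKBH5, YTHDF1, YTHDF2, YTHDF3, YTHDC1 and YTHDC2, out of 29329 genes in all. They were followed over 12 libraries of porcine in vitro fertilised embryos made by SMART-seq, which copies small amounts of polyadenylated RNA into full-length cDNA and amplifies it by PCR. Control embryos (con), labelled as a blank control, and embryos that received si-CCNB2 (si), a small interfering RNA against the mitotic cyclin gene CCNB2, were each sampled under the titles 2c and 4c, giving 4 groups (con-2c and con-4c, si-2c and si-4c) with 3 libraries apiece. According to the methods, si-CCNB2 was microinjected after fertilisation, each library was a pool of 10 embryos, and the control embryos were called both normal and the si-CCNB2 NC group. The methods also describe a negative control prepared for injection in the same volume, whereas the labels give a blank control, so it stayed unclear whether the controls of these libraries were injected. If they were not, effects of injection and of the siRNA cannot be told apart. In all 12 libraries the title and the tissue label gave opposite stages (2c titles carried a 4-cell tissue label and 4c titles a 2-cell one), and group names here follow the titles only. If the tissue labels were right, the differences of 4c over 2c within control or within si embryos, and the interactions, would have the opposite sign as differences between stages. The labels do not say whether the pools of a group came from separate fertilisations, so p-values measure only the spread between these libraries.

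The mark is deposited co-transcriptionally by a nuclear complex in which METTL3 is the catalytic subunit, METTL14 its RNA-binding partner and WTAP the adaptor that holds the complex in nuclear speckles. FTO and ALKBH5 are demethylases that can remove it. Proteins with a YTH domain bind the modified base: YTHDF1, YTHDF2 and YTHDF3 act in the cytoplasm, where YTHDF2 recruits the CCR4-NOT deadenylase and shortens the life of its targets, YTHDC1 acts in the nucleus on splicing and export, and YTHDC2 is an RNA helicase best known from meiotic germ cells. In mouse and zebrafish, YTHDF2 is known as a factor of maternal mRNA clearance, the step at which RNA stored in the oocyte is removed as the embryo begins to transcribe its own genome.

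Library totals lay between 27785233 and 39510908 counts, and those of con-4c, at 27785233 to 28771777, were below all others (33270517 or more). Genes with a count numbered 18427 ± 393 in con-2c and 18148 ± 75.7 in si-4c, but 22592 ± 612 in si-2c and 21476 ± 257 in con-4c (SD, n = 3 each, as for every mean ± SD here), so more genes were detected in the latter groups. CCNB2 was between 429 and 510 CPM in the 6 control libraries and between 17.8 and 46.8 CPM in the 6 si libraries (CPM, counts scaled to library size after TMM factors). Residual CCNB2 was unequal between the si groups, at 17.8 to 28.8 CPM in si-2c and 40.3 to 46.8 CPM in si-4c. This rise was 0.91 on the log2 scale (edgeR adjusted p 5.63e-05). Comparisons of the si groups with each other, and the interactions, therefore span unequal CCNB2 levels. The part of this difference in the results was not tested. Of 11 markers of oocytes and early embryos, 10 were in the table and all of these had counts in every group, with a summed level of 4427 to 4759 CPM in con-2c and 4046 to 4149 in si-4c, but 3088 to 3148 in si-2c and 2817 to 2910 in con-4c. The 8 markers of cumulus and granulosa cells in the table summed to 1.18 to 2.03 CPM in con-2c, 0.607 to 1.43 in si-4c, 1.78 to 3.80 in si-2c and 2.14 to 2.45 in con-4c. Of these, HAS2, FOXL2 and CYP11A1 had no count outside con-4c and at most 4 counts in a con-4c library. PTX3 had 17 to 33 counts per si-2c library and none in con-2c, and TNFAIP6 reached 79 counts and STAR 74 in an si-2c library. CYP19A1, with 19 to 27 counts per con-2c library, went the other way. It was at 0.715 ± 0.101 CPM in con-2c, 0.475 ± 0.143 in si-4c, 0.505 ± 0.143 in si-2c and 0.208 ± 0.0170 in con-4c. FSHR reached 16 counts in a con-4c library and 17 in an si-4c library. Of the 4 cumulus markers tested in edgeR, 0 passed in con-4c over con-2c (35.8% of all genes passed). In si-2c over con-2c 1 passed (29%). Blood markers, 3 in the table, summed to 0.238 to 0.509 CPM in con-2c, 0.260 to 0.570 in si-4c, 0.451 to 0.780 in si-2c and 1.79 to 2.63 in con-4c. Both that were tested (2 of 2) were called higher in con-4c over con-2c (14.4% of all genes) and lower in si-4c over con-4c (15.8%). Their counts were low: PTPRC had 24 to 53 counts and CD68 11 to 28 per con-4c library. The sperm markers ODF2 and AKAP4 summed to between 6.60 and 16.1 CPM, nearly all of it ODF2, while AKAP4, with no count in con-2c or si-4c, had up to 19 counts in a con-4c library and 7 to 54 in si-2c. The oocyte sum was high in con-2c and si-4c and low in con-4c and si-2c, mostly through OOEP (1338 ± 88.0 CPM in con-2c, but 440 ± 45.3 in si-2c and 371 ± 9.58 in con-4c) and ZP4 (1124 ± 184, 482 ± 62.9 and 528 ± 34.0 CPM, in the same order). BMP15 went the other way (887 ± 45.3, 1228 ± 69.3 and 985 ± 25.3 CPM), and ZP2 was at 173 ± 12.2 CPM in con-2c and 178 ± 10.6 in si-2c. Several scarce markers of other cell types were higher in con-4c or si-2c, while CYP19A1 was highest in con-2c. The part of these markers in the results was not tested.

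All 10 genes passed the filter on low counts and were tested among 17995 genes. The genes that differed between groups fell into opposite classes: METTL14 and METTL3 were high in con-2c and si-4c and low in con-4c and si-2c, while YTHDF2 and YTHDC1 were low in con-2c and si-4c and high in con-4c and si-2c. WTAP passed with smaller log2 fold changes, in si-4c over con-4c and over si-2c (X over Y gives the level in X relative to Y). FTO, ALKBH5, YTHDF1, YTHDF3 and YTHDC2 passed the test in none of the comparisons. In these pools, a change in RNA per cell and a change in the number of cells or embryos that carry the RNA cannot be told apart. Levels here are shares of the polyadenylated RNA captured in a library. A change in a gene's own RNA, in the other RNA of a library or in capture through the poly(A) tail cannot be told apart.

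**Figure D1:**
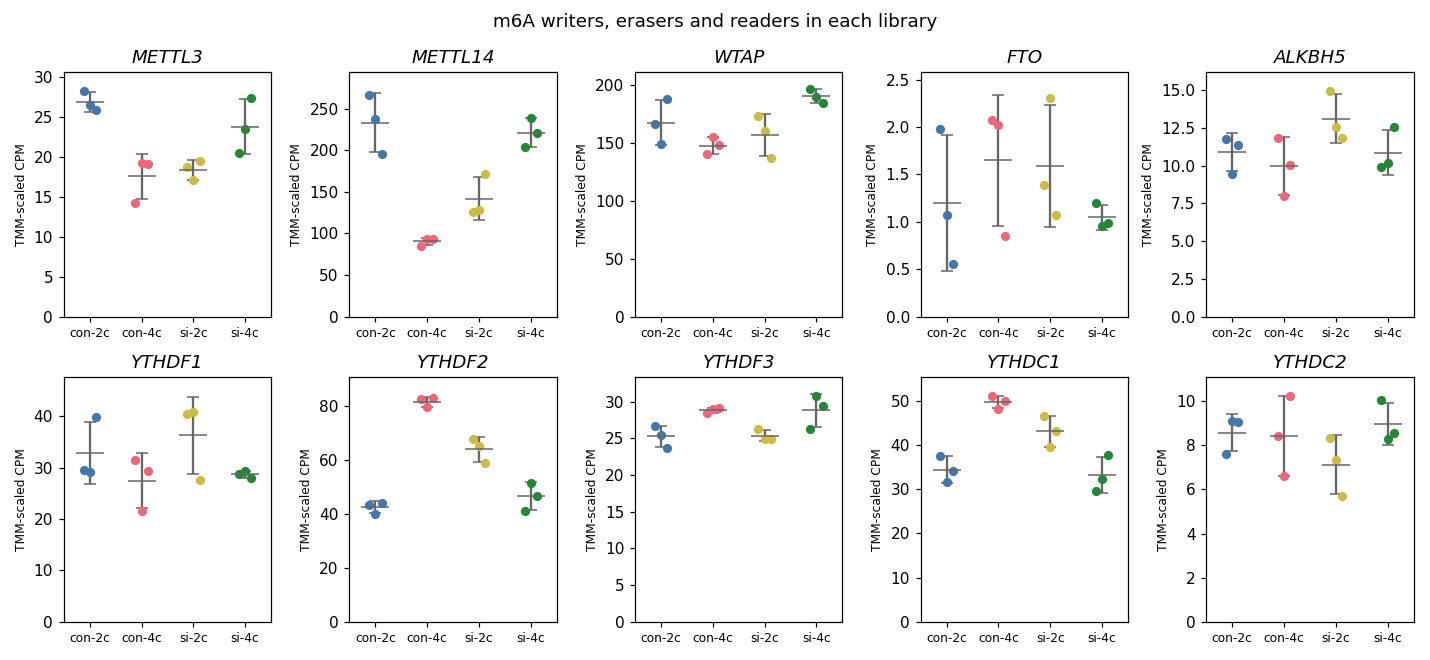
Each panel shows TMM-scaled CPM (vertical axis, from 0) of 1 gene in the 12 libraries, by group. Points are libraries and bars are the mean ± SD of 3 libraries. METTL14 lies at 85.4 to 93.3 CPM in con-4c, below every other library, and YTHDF2 at 79.5 to 82.8 CPM in con-4c, above every other library.

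METTL14 (ENSSSCG00000009113; Sscrofa11.1 chromosome 8, 105019539 to 105053603) had the widest range of group means, 2.58-fold from lowest to highest. Its level was 266, 238 and 196 CPM in con-2c, 204, 239 and 221 CPM in si-4c, 126, 128 and 172 CPM in si-2c and 85.4, 93.3 and 92.8 CPM in con-4c. The con-4c libraries were the lowest 3, the si-2c libraries came next, and those of con-2c and si-4c overlapped. Between con-2c and con-4c it fell from 233 ± 35.2 to 90.5 ± 4.44 CPM (log2 fold change, log2FC, -1.37, SE 0.12, adjusted p in edgeR 1.93e-07). In si-2c it was 142 ± 25.8 CPM and lower than in con-2c (-0.72, SE 0.12, adjusted p in edgeR 2.63e-04). The si-2c replicate 3, at 172 CPM, stood above the others of its group; without it this log2 fold change was -0.88. In si-4c METTL14 was 221 ± 17.2 CPM, higher than in con-4c (1.29, SE 0.12, adjusted p in edgeR 3.65e-07) and higher than in si-2c (0.64, SE 0.12, adjusted p in edgeR 7.56e-04). Scaling by library totals kept the differences of con-4c from con-2c (-1.09) and of si-4c from con-4c (1.03). Under it si-2c over con-2c (-0.31, edgeR adjusted p 0.0578) and si-4c over si-2c (0.26, edgeR adjusted p 0.113) did not pass.

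METTL3 (ENSSSCG00000024445; chromosome 7, 77661945 to 77679459), the catalytic subunit, had the same order of groups with smaller differences. It was at 28.2, 26.4 and 25.9 CPM in con-2c, 20.5, 23.5 and 27.4 CPM in si-4c, 18.7, 17.0 and 19.5 CPM in si-2c and 14.3, 19.2 and 19.1 CPM in con-4c. All con-2c libraries exceeded all con-4c and si-2c libraries, con-4c and si-2c overlapped, and so did si-4c and con-2c. The mean fell from 26.8 ± 1.20 CPM in con-2c to 17.5 ± 2.85 CPM in con-4c (log2FC -0.61, SE 0.14, adjusted p in edgeR 1.81e-03) and to 18.4 ± 1.24 CPM in si-2c (-0.55, SE 0.13, adjusted p in edgeR 5.27e-03). It was 23.8 ± 3.46 CPM in si-4c, above con-4c (0.44, SE 0.14, adjusted p in edgeR 0.0175) and above si-2c (0.37, SE 0.13, adjusted p in edgeR 0.0485). Under library totals METTL3 passed in none of these comparisons (log2 fold changes -0.34, -0.14, 0.19 and -0.01, in the same order), and the last of them changed sign. The pass for si-4c over con-4c was also lost without con-4c replicate 1 (0.31, edgeR adjusted p 0.0937) or si-4c replicate 3 (0.33, edgeR adjusted p 0.102) and among genes of at least 10 CPM (0.31, edgeR adjusted p 0.0578). That for si-4c over si-2c held in 3 of 19 alternatives (without con-4c replicate 1, without si-4c replicate 1 and without a filter), and leaving out any other library ended it (0.26 to 0.41).

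WTAP (ENSSSCG00000004050; chromosome 1, 7622544 to 7651732), the adaptor subunit, was at 166, 149 and 188 CPM in con-2c, 196, 190 and 184 CPM in si-4c, 173, 161 and 137 CPM in si-2c and 141, 155 and 148 CPM in con-4c. The con-2c, con-4c and si-2c libraries overlapped, and the si-4c libraries lay above all those of con-4c and si-2c but overlapped con-2c. WTAP did not pass in con-4c over con-2c (log2FC -0.18, SE 0.10, adjusted p in edgeR 0.160) or si-2c over con-2c (-0.10, SE 0.10, adjusted p in edgeR 0.519), and library totals made the latter positive (0.29, edgeR adjusted p 0.0471). It was 190 ± 6.05 CPM in si-4c, higher than the 148 ± 7.10 CPM of con-4c (0.36, SE 0.10, adjusted p in edgeR 6.86e-03) and the 157 ± 18.4 CPM of si-2c (0.28, SE 0.10, adjusted p in edgeR 0.0388). Library totals ended both WTAP passes and turned the second negative (0.11 and -0.10). The pass for si-4c over si-2c held in 7 of 19 alternatives, and each of the si-2c replicates 2 and 3, the si-4c replicates 1, 2 and 3 and the con-4c replicates 1, 2 and 3 ended it when left out (log2 fold changes 0.19 to 0.30).

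The demethylases gave no difference that passed. FTO (ENSSSCG00000035949; chromosome 6, 31177112 to 31564674) had few reads, with 18 to 86 counts and 0.553 to 2.30 CPM per library, and every pair of groups overlapped. The 95% interval of its log2 fold change ran from -0.56 to 1.47 in con-4c over con-2c, so changes within those bounds are not excluded. The spread between FTO libraries of a group averaged 38.8% of the mean, at a median of 45 counts. ALKBH5 (ENSSSCG00000035120; chromosome 12, 60507662 to 60530239) was at 10.9 ± 1.24 CPM in con-2c and 10.9 ± 1.48 in si-4c, but 13.1 ± 1.63 in si-2c and 9.97 ± 1.93 in con-4c. Its si-2c libraries, at 11.8 to 15.0 CPM, lay just above those of con-2c at 9.48 to 11.8 CPM, but the difference did not pass (log2FC 0.27, 95% interval -0.09 to 0.62, edgeR adjusted p 0.266). Only library totals made it pass (0.66, edgeR adjusted p 0.0102).

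Among the cytoplasmic readers, YTHDF2 (ENSSSCG00000027686; chromosome 6, 85717147 to 85756750) stood apart from its paralogs. Its level was 43.4, 40.0 and 44.1 CPM in con-2c, 41.2, 51.5 and 46.7 CPM in si-4c, 67.8, 65.0 and 58.7 CPM in si-2c and 82.4, 79.5 and 82.8 CPM in con-4c. The con-4c libraries were the highest, followed without overlap by si-2c, while con-2c and si-4c overlapped. YTHDF2 rose from 42.5 ± 2.21 CPM in con-2c to 81.6 ± 1.82 CPM in con-4c (log2FC 0.94, SE 0.09, adjusted p in edgeR 6.04e-07) and to 63.9 ± 4.69 CPM in si-2c (0.59, SE 0.09, adjusted p in edgeR 1.44e-04). In si-4c, at 46.5 ± 5.15 CPM, it was lower than in con-4c (-0.81, SE 0.09, adjusted p in edgeR 3.22e-06) and lower than in si-2c (-0.46, SE 0.09, adjusted p in edgeR 1.36e-03). These 4 differences passed in all 19 alternatives tried. The difference of 0.94 lies just under the minimum of 1 that the study set for a called gene, and library totals put it at 1.21.

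YTHDF1 (ENSSSCG00000040086; chromosome 17, 62329302 to 62341312), known for promoting translation of marked RNA, ranged from 21.5 to 40.7 CPM over the 12 libraries, and neighbouring groups in its order (con-4c, si-4c, con-2c, si-2c) all overlapped. It passed in no comparison among all genes tested, but in si-4c over si-2c (-0.34) it passed among genes of at least 10 CPM (-0.46, edgeR adjusted p 0.0255), under library totals (-0.71) and without si-2c replicate 3 (-0.50). Without that library YTHDF1 also passed in si-2c over con-4c (0.56, edgeR adjusted p 0.0372). YTHDF3 (ENSSSCG00000033144; chromosome 4, 70887101 to 70928839), which is known to act with both paralogs, had the narrowest range of group means of the 10, 1.14-fold: they were 25.3 ± 1.45 CPM in con-2c, 25.4 ± 0.786 in si-2c, 28.8 ± 2.28 in si-4c and 28.9 ± 0.349 in con-4c. The con-4c libraries of YTHDF3 lay above all con-2c libraries, yet the difference did not pass (log2FC 0.19, 95% interval -0.02 to 0.39, edgeR adjusted p 0.144). It passed under library totals (0.46, edgeR adjusted p 2.63e-03) and among genes of at least 10 CPM (0.30, edgeR adjusted p 0.0190). The paralogs are similar in sequence and the counting of reads shared between genes is not given in the sources used here, so the split of reads among them is uncertain.

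YTHDC1 (ENSSSCG00000035505; chromosome 8, 66086528 to 66122717), the nuclear reader, moved in the direction of YTHDF2. It was at 37.5, 31.5 and 34.2 CPM in con-2c, 29.6, 32.2 and 37.7 CPM in si-4c, 46.5, 39.5 and 43.1 CPM in si-2c and 50.9, 48.1 and 49.8 CPM in con-4c. The con-4c libraries were the highest 3, si-2c came next, and con-2c and si-4c overlapped. The mean rose from 34.4 ± 2.99 CPM in con-2c to 49.6 ± 1.42 CPM in con-4c (log2FC 0.53, SE 0.11, adjusted p in edgeR 7.54e-04) and to 43.0 ± 3.48 CPM in si-2c (0.32, SE 0.10, adjusted p in edgeR 0.0281). In si-4c it was 33.1 ± 4.13 CPM, lower than in con-4c (-0.58, SE 0.11, adjusted p in edgeR 3.29e-04) and in si-2c (-0.38, SE 0.10, adjusted p in edgeR 0.0122). The smaller of these were sensitive to single libraries. For si-2c over con-2c the YTHDC1 pass was lost without con-2c replicate 2 (0.26), con-2c replicate 3 (0.32), si-2c replicate 1 (0.26) or si-2c replicate 3 (0.32), with edgeR adjusted p between 0.0551 and 0.128. For si-4c over si-2c it was lost without si-2c replicate 1 (-0.32), si-4c replicate 1 (-0.30) or si-4c replicate 2 (-0.35). YTHDC2 (ENSSSCG00000014211; chromosome 2, 118003402 to 118092176), the helicase, ranged from 5.69 to 10.2 CPM, all neighbouring groups overlapped, and no comparison passed.

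The counts per comparison were then set against all genes tested. In con-4c over con-2c, 4 of the 10 genes passed at an adjusted p below 0.05 (YTHDF2 and YTHDC1 higher, METTL3 and METTL14 lower), against 35.8% of all genes, and the libraries of the groups did not overlap for 5 of the 10, against 48.6%. With a minimum of 2-fold, METTL14 alone was called (17.7% of all genes). In si-2c over con-2c the same 4 genes passed in the same directions, against 29% of all genes, and the groups did not overlap for 5, against 41.7%. By edgeR or DESeq2, 0 of 10 reached 2-fold (12.5% of all genes); these comparisons share the con-2c libraries. In si-4c over con-4c, 5 of the 10 passed (the 3 writers higher, YTHDF2 and YTHDC1 lower), against 36.8%, with 5 of 10 not overlapping, against 50.9%, and METTL14 alone past 2-fold (19%). In si-4c over si-2c the same 5 passed, against 28.9%, the groups did not overlap for 6, against 42.8%, and 0 reached 2-fold by edgeR or DESeq2 (13.3%); this count is fragile, falling to 2 without si-4c replicate 2 and to 3 without con-4c replicate 2 or 3, si-2c replicate 1 or 2, or si-4c replicate 1 or 3. These shares are a description, and the 10 were not tested as a list. The median log2 fold change of the 10 genes was -0.08, 0.07, 0.08 and -0.04 in these comparisons, against 0.11, 0.12, -0.11 and -0.13 for all genes.

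**Figure D2:**
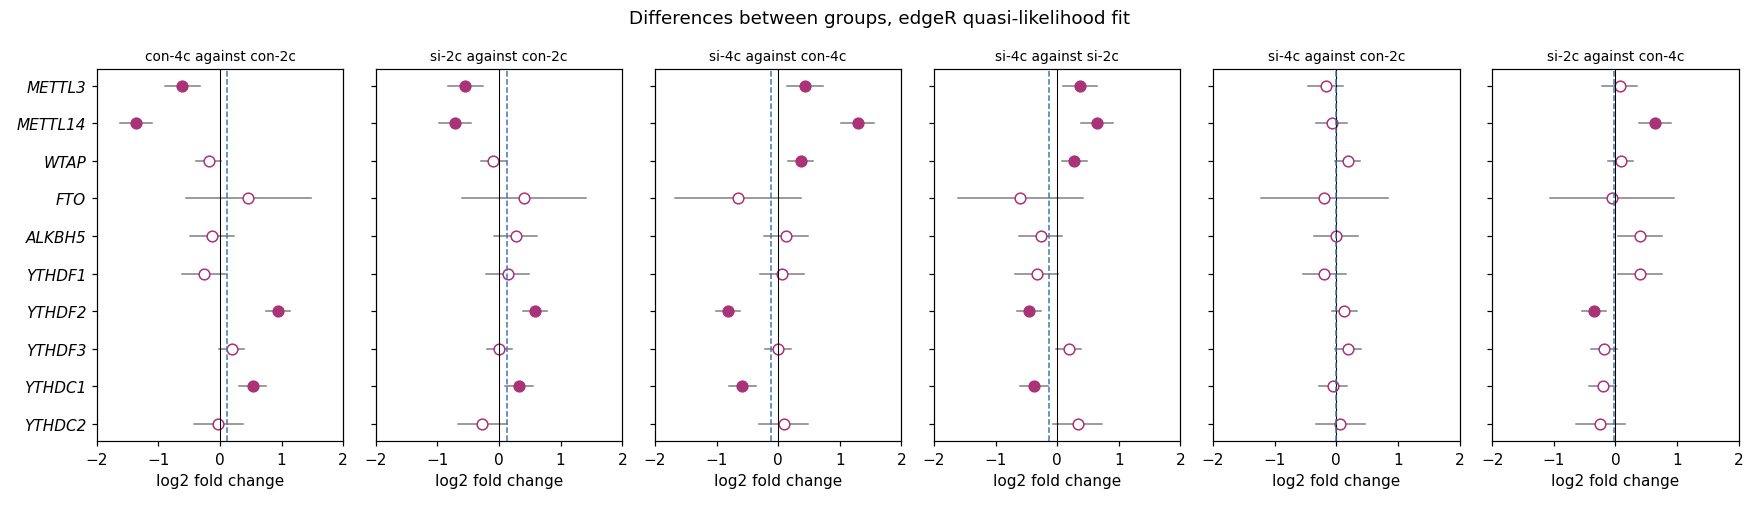
Log2 fold change (horizontal axis) of each of the 10 genes in 6 comparisons, with 95% intervals from the edgeR fit. Filled points passed at an adjusted p below 0.05, open points did not, and the dashed line is the median of all genes tested. METTL14 lies at -1.37 and YTHDF2 at 0.94 in con-4c over con-2c, and no gene passed in si-4c over con-2c.

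The choice of scaling bears on these values. With library totals in place of TMM factors, the median of all genes moved from 0.11 to 0.38 in con-4c over con-2c, from 0.12 to 0.52 in si-2c over con-2c, from -0.11 to -0.37 in si-4c over con-4c and from -0.13 to -0.51 in si-4c over si-2c. A change of scaling shifts all genes by about the same amount, so distances from that median are nearly the same under both by construction: in con-4c over con-2c they were -1.48 for METTL14, -0.72 for METTL3, 0.83 for YTHDF2 and 0.42 for YTHDC1 under TMM. Which genes passed did change. Under library totals 6 of the 10 genes passed in si-2c over con-2c, all higher (WTAP, ALKBH5, YTHDF1, YTHDF2, YTHDF3 and YTHDC1), and METTL3 and METTL14 did not, where 37.4% of all genes passed and 33.6% passed as higher. In si-4c over si-2c 4 passed, all lower (ALKBH5, YTHDF1, YTHDF2 and YTHDC1), and none of the 3 writers did, where 36.7% of all genes passed and 33.1% passed as lower. The directions of these passes were thus those of most genes that passed under that scaling.

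The comparisons across titles asked whether si embryos resembled controls of the other title. In si-4c over con-2c, 0 of the 10 genes passed by edgeR or DESeq2, 0 had an unadjusted edgeR p below 0.05 and 0 had groups that did not overlap, against 0.672% of all genes passing and 14.1% not overlapping. The log2 fold changes lay between -0.19 and 0.19. Their 95% intervals were -0.33 to 0.18 for METTL14, -0.46 to 0.11 for METTL3, -0.07 to 0.33 for YTHDF2 and -0.28 to 0.17 for YTHDC1, so the differences of con-4c over con-2c (-1.37, -0.61, 0.94 and 0.53) lay outside the intervals of all 4. In si-2c over con-4c, 2 of 10 passed, against 7.54%, and 4 did not overlap, against 27.1%. METTL14 was higher in si-2c (0.65, SE 0.12, adjusted p in edgeR 3.07e-03), and YTHDF2 was lower (-0.35, SE 0.09, adjusted p in edgeR 0.0267). The YTHDF2 pass held in 12 of 19 alternatives. It was lost under library totals (-0.23), with a replicate block (-0.35, edgeR adjusted p 0.0550) and without con-4c replicate 1, 2 or 3 or si-2c replicate 2 or 3 (-0.37 to -0.29). The levels of METTL14 and YTHDF2 in si-2c thus lay between those of con-2c and con-4c without overlap on either side.

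The difference between titles was tested against itself in control and si libraries, as an interaction (si-4c minus si-2c, less con-4c minus con-2c). It passed for 5 of the 10 genes, against 45.5% of all genes, and 2, METTL14 and YTHDF2, also differed by 1 or more (32.4%). For METTL14 it was 2.01 on the log2 scale (SE 0.17, adjusted p in edgeR 6.42e-08), for METTL3 0.98 (SE 0.19, adjusted p in edgeR 4.44e-04) and for WTAP 0.46 (SE 0.14, adjusted p in edgeR 0.0109). For YTHDF2 it was -1.40 (SE 0.13, adjusted p in edgeR 1.94e-07) and for YTHDC1 -0.91 (SE 0.15, adjusted p in edgeR 8.96e-05). METTL14, YTHDF2 and YTHDC1 kept this pass in all 18 alternatives, with values of 1.34, -2.05 and -1.56 under library totals. METTL3 (0.33, edgeR adjusted p 0.201) and WTAP (-0.18, edgeR adjusted p 0.350) lost it under library totals, where WTAP changed sign, and WTAP lost it among genes of at least 10 CPM as well (0.23, edgeR adjusted p 0.141). For YTHDF3 the interaction was -0.01, with a 95% interval of -0.29 to 0.28. Library totals, under which 50.3% of all genes passed and 43.2% were negative, added 4 passes, all negative: YTHDF3 (-0.66, edgeR adjusted p 1.64e-03), ALKBH5 (-0.80, edgeR adjusted p 0.0188), YTHDF1 (-0.72, edgeR adjusted p 0.0289) and FTO (-1.73, edgeR adjusted p 0.0376).

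Ratios of counts within a library do not depend on scaling between libraries; 3 were formed after the values had been seen. The ratio of METTL14 to METTL3 counts was 8.67 ± 0.973 in con-2c and 9.41 ± 1.16 in si-4c, but 7.70 ± 1.05 in si-2c and 5.23 ± 0.658 in con-4c, and the con-4c libraries, at 4.85 to 5.99, lay below all others. The ratio of YTHDF2 to the sum of YTHDF1 and YTHDF3 was 0.732 ± 0.0387 in con-2c and 0.806 ± 0.0551 in si-4c, but 1.04 ± 0.0677 in si-2c and 1.45 ± 0.105 in con-4c, with con-4c and then si-2c above the rest without overlap. The ratio of YTHDF2 to METTL14 pairs genes already seen to move in opposite directions and so restates their levels, at 0.185 ± 0.0345 in con-2c, 0.210 ± 0.00718 in si-4c, 0.463 ± 0.106 in si-2c and 0.903 ± 0.0578 in con-4c. Exact two-sided permutation tests of 3 against 3 libraries cannot go below 0.10, and that value was reached in 13 of the 18 comparisons of ratios (Benjamini-Hochberg adjusted 0.138).

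**Figure D3:**
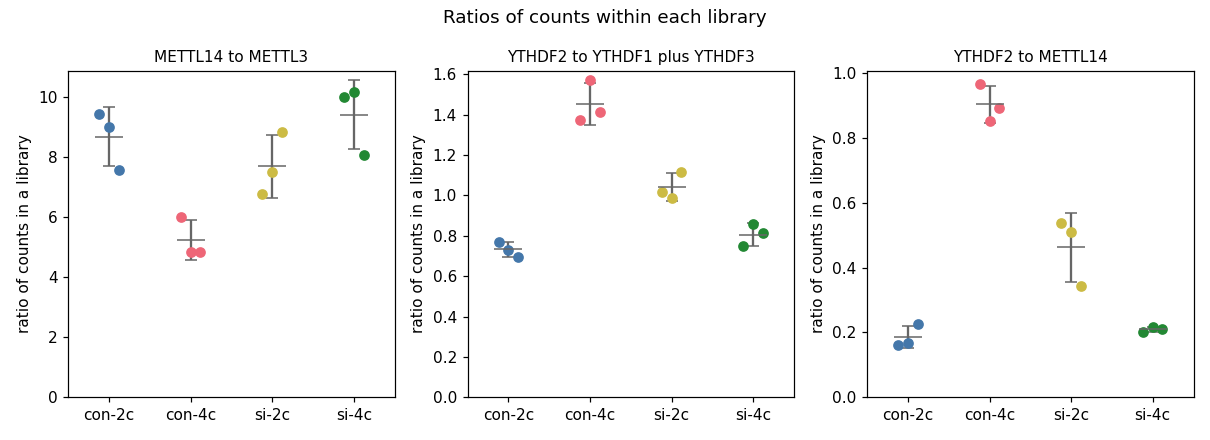
Ratios of raw counts within each library (vertical axis, from 0) by group, for METTL14 to METTL3, YTHDF2 to YTHDF1 plus YTHDF3, and YTHDF2 to METTL14. Points are libraries and bars the mean ± SD of 3. The ratio of YTHDF2 to METTL14 runs from 0.185 in con-2c to 0.903 in con-4c.

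The other genes of the pathway were taken from 5 lists, 36 genes in all, of which 34 were in the table by symbol and all 34 were tested. HNRNPC and RBMX were not analysed here. In con-4c over con-2c, 12 of the 34 rose and 4 fell, where 35.8% of all genes passed, 7 of them by at least 2-fold and all of those upward (14.4% of all genes were called higher). In si-2c over con-2c, 11 rose and 4 fell (29% of all genes passed), with 5 called higher (10.7%). In si-4c over con-4c, 4 rose and 12 fell (36.8% of all genes passed), with 7 called lower (15.8%). In si-4c over con-2c 0 of 34 passed by edgeR, 6 had an unadjusted edgeR p below 0.05 and 1 passed by DESeq2, where 0.672% of all genes passed by edgeR and 2.05% by DESeq2. Scaling moved this split: under library totals 18 rose and 0 fell in con-4c over con-2c, 19 rose and 0 fell in si-2c over con-2c, and 1 rose and 19 fell in si-4c over con-4c. Under that scaling 29.2% of all genes rose and 7.37% fell in con-4c over con-2c, 33.6% rose and 3.77% fell in si-2c over con-2c, and 7.61% rose and 29.4% fell in si-4c over con-4c. The median log2 fold change of the 34 genes was 0.15 in con-4c over con-2c, 0.11 in si-2c over con-2c and -0.15 in si-4c over con-4c, beside 0.11, 0.12 and -0.11 for all genes.

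Among the other subunits of the writer complex, the RNA-binding adaptors that guide it moved opposite to METTL3 and METTL14. RBM15 was 2.97 ± 0.223 CPM in con-2c and 2.66 ± 0.413 in si-4c, but 9.54 ± 1.05 in si-2c and 11.3 ± 0.458 in con-4c (con-4c over con-2c 1.92, SE 0.18, adjusted p in edgeR 1.98e-07; si-4c over si-2c -1.84, adjusted p 6.06e-07). RBM15B, its paralog, was 1.80 ± 0.447 CPM in con-2c and 1.75 ± 0.116 in si-4c, but 4.63 ± 0.735 in si-2c and 6.34 ± 0.839 in con-4c (con-4c over con-2c 1.81, SE 0.24, adjusted p in edgeR 1.68e-05). CBLL1, the E3 ligase-like subunit, went with METTL14, from 787 ± 80.3 CPM in con-2c to 595 ± 6.58 in con-4c (-0.40) and 582 ± 111 in si-2c (-0.43), though neither CBLL1 pass held under library totals (-0.12 and -0.03). VIRMA, the scaffold, and ZC3H13, which keeps the complex in the nucleus, did not pass in any of con-4c over con-2c, si-2c over con-2c and si-4c over con-4c, with log2 fold changes between -0.14 and 0.17, although ZC3H13 passed in all 3 under library totals (0.34, 0.38 and -0.35), where VIRMA changed sign (0.24, 0.26 and -0.09). VIRMA passed in si-4c over si-2c (0.28, edgeR adjusted p 0.0230) and in the interaction (0.31, edgeR adjusted p 0.0478), and under library totals both values were below 0 and neither passed (-0.10 and -0.34). Of 5 other subunits, 3 passed in con-4c over con-2c, 2 of them upward, against 35.8% of all genes.

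Of a list of 6 genes, other RNA methyltransferases and TRMT112, the activating partner of METTL5, 1 passed in con-4c over con-2c (35.8% of all genes) and 3 in si-4c over con-4c (36.8% of all genes), namely METTL16 (-0.43), TRMT112 (-0.44) and METTL4 (0.38), the last of which did not pass under library totals (0.12). METTL16, which marks U6 RNA and the MAT2A transcript, was 34.3 ± 1.36 CPM in con-2c but 56.5 ± 5.32 in con-4c (0.72). In this list 0 of 6 passed in si-2c over con-2c by edgeR or DESeq2 (29% of all genes passed by edgeR), and 1, METTL16, had an unadjusted edgeR p below 0.05. Under library totals 2 of the 6 passed there, both higher, where 33.6% of all genes passed as higher. MAT2A, which makes the methyl donor S-adenosylmethionine, was 71.4 ± 7.36 CPM in con-2c and 86.6 ± 4.51 in si-4c, but 130 ± 19.0 in si-2c and 129 ± 1.74 in con-4c (0.85 in con-4c over con-2c, SE 0.10, adjusted p in edgeR 4.69e-06). AHCY, which clears the by-product of methylation, had 32 to 172 counts per library; it went from 2.79 ± 0.257 CPM in con-2c to 1.42 ± 0.433 in con-4c (-0.98, SE 0.34, adjusted p in edgeR 0.0330, lost under library totals at -0.71), and 3.25 ± 1.26 CPM in si-2c.

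Of the 9 tested readers without a YTH domain, HNRNPA2B1, a nuclear RNA-binding protein, rose from 200 ± 8.22 CPM in con-2c to 580 ± 8.83 in con-4c (1.54, SE 0.09, adjusted p in edgeR 5.61e-10) and 360 ± 39.5 in si-2c, and was 232 ± 18.7 CPM in si-4c. IGF2BP1, a stabilising reader, had no count in con-2c or si-4c, 11 to 32 counts per con-4c library and 2 to 17 per si-2c library. Against a floor of 3 counts over the 3 con-2c libraries, its pooled level was 21.0 times the floor in con-4c (59 counts) and 7.29 times in si-2c (28 counts). The error of these pooled counts is not part of the ratios, so they are not lower bounds. Without con-4c replicate 3 (32 counts) the ratio for con-4c was 14.5. Without si-2c replicate 1 (17 counts) that for si-2c was 4.26. Leaving out any 1 con-2c library, each at 0 counts, only raises the floor. The ratios were then 13.8 to 14.3 in con-4c and 4.78 to 4.94 in si-2c. Its paralog IGF2BP3, at 409 ± 12.4 CPM in con-2c, did not pass by edgeR in con-4c over con-2c (-0.18, and 0.09 under library totals). There 4 of the 9 readers passed by edgeR (35.8% of all genes) and 5 by DESeq2 (32.3%). IGF2BP3 rose in si-4c over con-4c (0.24), where library totals ended the pass (-0.02). ELAVL1, which also stabilises RNA, fell from 62.6 ± 9.45 to 45.0 ± 3.95 CPM in con-4c (-0.48), a pass lost under library totals (-0.20).

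Of 9 partners of the YTH readers, 5 rose and 1 fell in con-4c over con-2c, where 35.8% of all genes passed. NXF1, the mRNA export receptor to which YTHDC1 hands its cargo, was 4.75 ± 0.871 CPM in con-2c and 4.14 ± 0.916 in si-4c, but 24.1 ± 1.63 in si-2c and 29.0 ± 0.510 in con-4c (2.61 in con-4c over con-2c, SE 0.17, adjusted p in edgeR 2.28e-09). SRSF3, a splicing factor bound by YTHDC1, rose from 64.2 ± 2.22 to 152 ± 4.13 CPM in con-4c (1.24, SE 0.08, adjusted p in edgeR 1.92e-09), while SRSF10, the other such factor listed, did not pass there (-0.07, and 0.20 with a pass under library totals). CPSF6, a polyadenylation factor, rose from 12.1 ± 0.464 to 27.6 ± 0.844 CPM (1.19). MEIOC, the partner of YTHDC2, rose from 7.99 ± 0.477 to 15.8 ± 1.96 CPM (0.98) although YTHDC2 itself did not pass. CNOT1, the scaffold through which YTHDF2 recruits deadenylation, rose from 38.5 ± 3.03 to 61.9 ± 3.90 CPM (0.69). RIDA, an adaptor between YTHDF2 and an endonuclease, went the other way, from 1985 ± 384 CPM in con-2c to 1492 ± 75.8 in con-4c and 1308 ± 107 in si-2c, with 2530 ± 331 in si-4c, and its falls did not pass under library totals (-0.13 and -0.20).

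**Figure D4:**
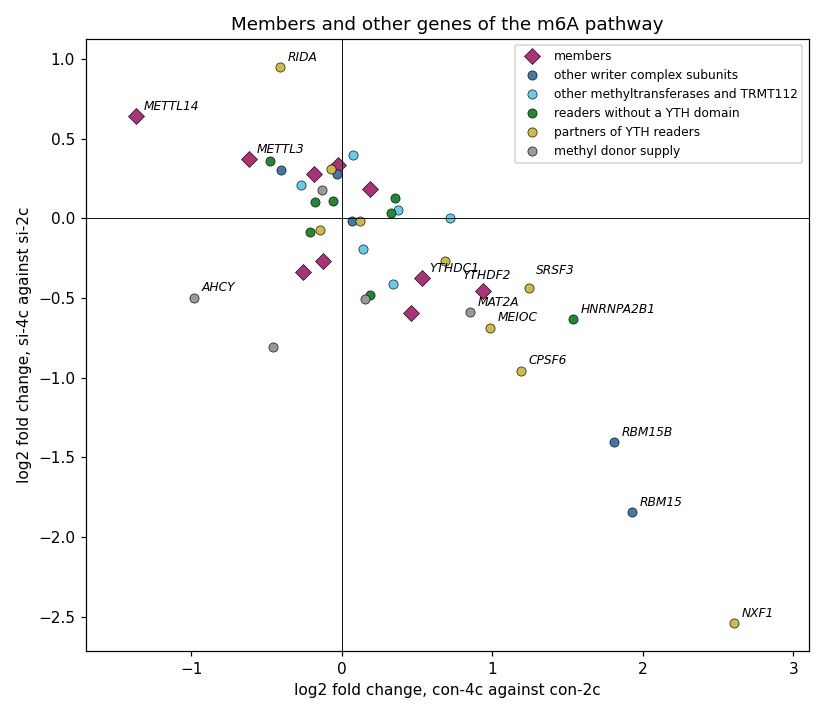
Log2 fold change of con-4c over con-2c (horizontal axis) and of si-4c over si-2c (vertical axis), which share no library, for the 10 members (diamonds) and 33 other genes of the pathway (circles, coloured by list). IGF2BP1, which had no count in 2 groups, is not drawn. METTL14 lies at the upper left (-1.37 and 0.64), and NXF1 at the lower right (2.61 and -2.54).

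Genes with the most similar pattern were sought among 5321 named genes of at least 10 CPM, by Pearson's r of log2 CPM over the 12 libraries, which share their group structure. METTL14 was closest to TP53INP1, PHYHIPL and FANCL (r 0.992, 0.990 and 0.989) and YTHDF2 to DST, SYF2 and LIN54 (0.987, 0.986 and 0.982). YTHDC1 was closest to KLF4, KCTD20 and LSM14A (0.956, 0.951 and 0.950), METTL3 to ATP2C1, PHB2 and UHRF2 (0.932, 0.928 and 0.926) and WTAP to KBTBD4, PYGB and PCMT1 (0.957, 0.934 and 0.913). The genes that passed no test had lower values: r was 0.883 for YTHDF1 with BRI3, 0.875 for YTHDF3 with AZIN1, 0.844 for FTO with ZNF389, 0.835 for ALKBH5 with SUPT3H and 0.800 for YTHDC2 with BCAS4. Among the 10 genes themselves, r was 0.85 between METTL14 and METTL3, 0.92 between YTHDF2 and YTHDC1, and -0.95 between METTL14 and YTHDF2.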

How the data were processed

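SMART-seq libraries of porcine embryos were compared as raw counts. The counts deposited by the authors are whole numbers per Ensembl gene, not normalized. The submitters' processing notes name cutadapt 1.9, HISAT2 2.2.1, StringTie 2.1.6, DESeq2, edgeR and the build Sscrofa11.1; annotation release, strand use and treatment of multi-mapping reads are not given in the sources used here. Coordinates are RefSeq gene spans on Sscrofa11.1, matched by symbol for all 10 genes. Transcript lengths were not used, so levels are compared between groups and not between genes.

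Counts were fitted in R 4.3.3 with edgeR 4.0.16 (filterByExpr, TMM factors 0.852 to 1.21, quasi-likelihood test, 4 group means, all 12 libraries), with Benjamini-Hochberg adjustment over 17995 genes. A gene passed at an adjusted p below 0.05 and was called if it also differed by 1 or more on the log2 scale (2-fold), the thresholds of the study. Standard errors are effect sizes over the root of F, and intervals cover 95%. X over Y means the log2 fold change (log2FC) of X relative to Y. The common dispersion gave a coefficient of variation of 27.3%. Similarity was taken on log2 CPM, prior count 2. Alternatives were DESeq2 1.42.0, library totals, relative log expression factors, other filters, only the groups compared, a replicate block and leaving out each library. The fit was tested on simulated data.

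The 10 genes, the lists and the ratios were chosen with earlier results of these data known. Named genes were the 10 members, CCNB2, list genes called in a main comparison and the 3 most similar genes per member; VIRMA, ZC3H13, CBLL1, METTL16, TRMT112, METTL4, MAT2A, AHCY, CNOT1, SRSF10, IGF2BP3, ELAVL1 and RIDA were added after their values were seen. Reads carry no molecular identifiers, so counting error alone understates the error. Within groups, libraries differed by more than counting error, with a chi-square of 7.48 to 44.0 per degree of freedom.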

Additional observations from a re-analysis of the deposited data

Results flagged for a closer look

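The difference between the titles 4c and 2c was not the same in control and si libraries for 5 of the 10 genes, by a test of the interaction in edgeR over all 12 libraries. It was 0.98 for METTL3 (edgeR adjusted p 4.44e-04), 2.01 for METTL14 (adjusted p 6.42e-08), 0.46 for WTAP (adjusted p 0.0109), -1.40 for YTHDF2 (adjusted p 1.94e-07) and -0.91 for YTHDC1 (adjusted p 8.96e-05). Since 45.5% of all genes passed this test, the number is near that of all genes. Under library totals METTL3 (0.33, edgeR adjusted p 0.201) and WTAP (-0.18, edgeR adjusted p 0.350) did not pass, and WTAP did not among genes of at least 10 CPM either (0.23). The opposite stages given by title and tissue label apply to all 12 libraries alike: if the tissue labels were right, each of these values would keep its size and change its sign.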

How the results depend on the processing

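Replicate numbers recur in every group, but same-numbered libraries did not deviate together (r -0.0495 to 0.0290 over 18 pairs, 0 of them over 0.1, and 5 of 12 libraries correlated best with their own number). The labels do not say whether a number marks a shared run or fertilisation, and this was not tested. With the replicate as a block, 3 of the 10 genes passed in si-4c over si-2c (25.8% of all genes) and 1 in si-2c over con-4c (6.24%). ALKBH5 (0.0048, si-4c over con-2c) and FTO (0.0060, si-2c over con-4c) changed sign in the blocked fit. Under library totals the genes called were 2 in con-4c over con-2c (19.1% of all genes), 2 in si-4c over con-4c (20%) and 4 in the interaction (36.8%), and those passing were 3 in si-4c over con-4c (37%) and 1 in si-2c over con-4c (8.43%). Among genes of at least 10 CPM, where FTO and YTHDC2 were not tested, 2 were called in con-4c over con-2c (11.6%). With only the groups compared, 3 passed in si-4c over si-2c (29.7%). Leaving out single libraries gave 2 to 4 genes in si-4c over si-2c (21.5% to 27.3% of all genes) and 1 to 2 in si-2c over con-4c (4.38% to 7.73%).

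Library totals turned WTAP (0.082), ALKBH5 (0.14), YTHDF1 (0.0053) and YTHDC2 (0.25) in con-4c over con-2c, WTAP (0.29) and YTHDC2 (0.12) in si-2c over con-2c, and ALKBH5 (-0.13), YTHDF1 (-0.20) and YTHDC2 (-0.17) in si-4c over con-4c. They also turned METTL3 (-0.012), WTAP (-0.10), YTHDF3 (-0.20) and YTHDC2 (-0.048) in si-4c over si-2c, ALKBH5 (0.011) in si-4c over con-2c, FTO (0.055) in si-2c over con-4c, and WTAP (-0.18) and YTHDC2 (-0.29) in the interaction. YTHDC2 in con-4c over con-2c became 0.0077 with relative log expression factors and 0.0046 in DESeq2. Without a filter YTHDF3 was -0.00046 in si-2c over con-2c, 0.0081 in si-4c over con-4c and 0.0085 in the interaction. Among genes of at least 10 CPM, WTAP was 0.0064 in si-2c over con-2c, and ALKBH5 -0.0025 and YTHDF1 -0.063 in si-4c over con-4c.

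Single libraries turned small differences that had not passed. The ranges were -0.28 to 0.0046 (ALKBH5) and -0.19 to 0.12 (YTHDC2) in con-4c over con-2c, and -0.037 to 0.040 (YTHDF3) in si-2c over con-2c. In si-4c over con-4c they were -0.0077 to 0.27 (ALKBH5), -0.081 to 0.18 (YTHDF1), -0.046 to 0.065 (YTHDF3) and -0.054 to 0.25 (YTHDC2). In si-4c over con-2c they were -0.21 to 0.028 (METTL14), -0.56 to 0.36 (FTO), -0.12 to 0.060 (ALKBH5), -0.15 to 0.023 (YTHDC1) and -0.028 to 0.12 (YTHDC2). In si-2c over con-4c they were -0.056 to 0.14 (METTL3) and -0.42 to 0.16 (FTO), and in the interaction -0.27 to 0.0070 (ALKBH5), -0.24 to 0.040 (YTHDF1) and -0.047 to 0.063 (YTHDF3). Of results that passed, 268 of 300 stayed past the threshold with 1 library left out and 32 did not. Under the other alternatives 148 of 170 stayed, 19 no longer passed and 3 changed sign. Of results that had not passed, 2 of 540 came to pass with 1 library left out (both YTHDF1, without si-2c replicate 3) and 12 of 296 in the same direction under other alternatives, beside WTAP in si-2c over con-2c, which changed sign and passed under library totals. The causes were not tested. The scaling of the other pathway genes and the leaving out of libraries for IGF2BP1 were added after seeing the data.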
